A study of Mus musculus with 32 samples.

Results

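Ikaros binding at 1 h was compared with that at 30 min after induction in B3, a line of mouse pre-B cells. The cells carry an HA-tagged Ikaros (IKZF1) joined to ERt2, a hormone-binding domain that keeps the protein out of the nucleus until 4-hydroxytamoxifen (4-OHT) is given. The construct was brought in by retroviral transduction and every library, uninduced ones included, comes from this one line. The anti-HA beads bind the tagged protein, and what is crosslinked to it comes down with it. Cells received 500 nM 4-OHT for 30 min, 1 h or 2 h, or none (0 h), and chromatin immunoprecipitation with sequencing (ChIP-seq) was done for HA-Ikaros, CHD4 and the histone mark H3K27ac with 2 libraries per time. The labels do not say whether the 2 came from separate cultures, so spreads and p-values measure the difference between libraries, which may be technical. The question here was which regions Ikaros newly occupied between 30 min and 1 h, which it left, and how CHD4 and acetylation lay at them.

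The members were found by merging the 2 peak lists at 1 h (12447 and 14874 peaks for replicates 1 and 2) and the 2 at 30 min (9181 and 5373 peaks) wherever peaks shared at least 1 bp. This gave 18631 regions, of 23856 regions over all 8 Ikaros lists of the series. Gained regions had a peak in both 1 h libraries and in neither 30 min library, lost regions showed the reverse, and kept regions had a peak in all 4. There were 2372 gained regions (12.7% of the 18631), 50 lost regions (0.268%) and 3400 kept regions (18.2%). The other regions were called in some replicates and not in others and belong to none of the 3 classes. Without 1 h replicate 1, 1 h replicate 2, 30 min replicate 1 or 30 min replicate 2, so that 3 lists decided a class, 6847, 4720, 5153 and 2931 regions were gained and 169, 239, 491 and 1000 lost, and 6171 were kept without Ikaros 30 min replicate 2.

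Ikaros is a zinc finger transcription factor of lymphocytes that restrains the growth of pre-B cells and is needed for their differentiation. Its DNA-binding fingers contact short sequences built on a GGGA or GGAA core, often as TGGGAA. Ikaros works with NuRD, a corepressor complex that couples histone deacetylases to CHD4, the subunit that moves nucleosomes. H3K27ac marks active promoters and enhancers and is among the marks that deacetylases remove. Checked against the labelled cell type, all 7 of 7 B-lineage markers (Cd79a, Cd79b, Pax5, Ebf1, Igll1, Vpreb1 and Blnk) had an H3K27ac peak at the promoter in all 8 H3K27ac libraries, against 2 of 8 T-lineage, 0 of 8 myeloid and 2 of 8 erythroid markers.

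The sequences under 9 of the 12 regions of highest rank described below are shown so that the letters at the summits can be read beside their values (those at Mapk4, Shprh and Ctdnep1 are not shown). Each is 101 bp of the plus strand of GRCm38 (mm10), the build of the files, centred on the Ikaros summit and named for the nearest start site of a protein-coding gene. Capitals mark the core words GGAA and GGGA and their reverse complements TTCC and TCCC, which can overlap.
Foxo3, gained, chr10:42220608-42220708: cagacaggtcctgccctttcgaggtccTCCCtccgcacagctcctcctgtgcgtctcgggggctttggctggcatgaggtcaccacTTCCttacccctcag
Hist2h3c2, gained, chr3:96239363-96239463: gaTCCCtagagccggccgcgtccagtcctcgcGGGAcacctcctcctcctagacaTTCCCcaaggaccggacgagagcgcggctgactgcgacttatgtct
Panx1, gained, chr9:15030090-15030190: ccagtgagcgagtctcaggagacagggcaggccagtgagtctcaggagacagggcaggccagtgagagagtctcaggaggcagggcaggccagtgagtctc
Senp2, gained, chr16:22009262-22009362: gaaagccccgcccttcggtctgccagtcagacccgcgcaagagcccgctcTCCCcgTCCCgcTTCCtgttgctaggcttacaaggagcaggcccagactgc
Nab1, lost, chr1:52511899-52511999: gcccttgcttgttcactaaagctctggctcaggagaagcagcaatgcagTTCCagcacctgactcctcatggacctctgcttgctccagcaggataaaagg
Bdkrb2, lost, chr12:105551927-105552027: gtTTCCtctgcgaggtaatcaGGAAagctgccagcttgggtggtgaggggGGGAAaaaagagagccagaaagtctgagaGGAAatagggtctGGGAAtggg
Ebf1, lost, chr11:44911480-44911580: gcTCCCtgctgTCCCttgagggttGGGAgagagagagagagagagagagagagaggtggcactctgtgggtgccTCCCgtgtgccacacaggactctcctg
Cpped1, kept, chr16:11687217-11687317: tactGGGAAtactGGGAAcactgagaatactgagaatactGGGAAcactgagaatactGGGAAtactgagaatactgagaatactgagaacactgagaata
Anapc16, kept, chr10:59974810-59974910: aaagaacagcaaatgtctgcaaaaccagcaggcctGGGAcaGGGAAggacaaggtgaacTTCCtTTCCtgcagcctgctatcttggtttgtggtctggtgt

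The gained windows at Foxo3, Hist2h3c2 and Senp2 held 2, 4 and 3 core words, and the one at Panx1, a short tandem repeat, held 0. The lost windows at Nab1, Bdkrb2 and Ebf1 held 1, 7 and 4, and the kept windows at Cpped1 and Anapc16 held 8 and 5. The counts of gained and lost windows overlapped, and 9 windows are too few to compare the classes. At Cpped1 the words recur because the window is itself a tandem repeat. A word is a description of the letters and not proof of a binding site.

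More Ikaros peaks were listed at 1 h than at 30 min. The mean was 13660.5 ± 1716 peaks at 1 h and 7277 ± 2693 at 30 min (SD, n = 2), a difference of 6383.5. Both 1 h lists were longer than both 30 min lists, but 2 libraries against 2 cannot give an exact two-sided permutation p below 0.33, which is the value obtained (adjusted p = 0.381 over 8 tests). Replicate 2 at 30 min was the shortest of the 4 lists. Mean coverage, recovered from the fold and p of each peak, was 2.52 and 2.233 fragments per base at 1 h and 2.54 and 1.98 at 30 min, so the groups overlapped in depth and the shortest list was also the shallowest. Library by library, replicate 1 had almost the same depth at both times and 12447 against 9181 peaks. The pileups recovered from the 0 h Ikaros lists were mostly not whole numbers, unlike those of the later times, so the 0 h signal may have been scaled differently and 0 h calls and folds may not be comparable with later ones.

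Most of the 30 min binding was found again. Of the regions in replicate 1 at 30 min, 78.9% were called in replicate 1 at 1 h and 81.6% in replicate 2. Of those in replicate 2 at 30 min, 82.5% and 86.4% were. In the other direction the lists covered less, with 57.1% and 35.2% of the regions of 1 h replicate 1 and 48.3% and 30.2% of those of replicate 2 called in 30 min replicates 1 and 2. Between replicates of one time, 1 h replicate 1 shared 76.7% of its regions with replicate 2, or 62.8% of those of replicate 2, and 30 min replicate 1 shared 43.6%, or 73.9% of those of replicate 2.

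**Figure D1:**
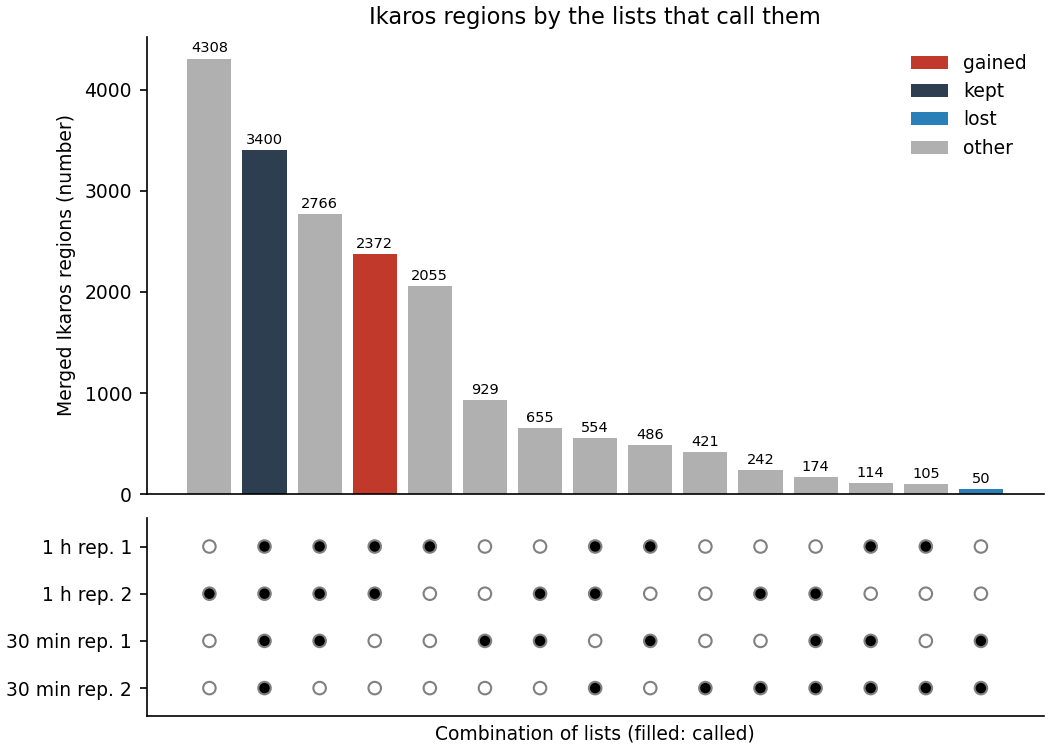
Number of merged Ikaros regions for each combination of the 4 lists that called them. Filled circles mark the lists with a peak, red is gained (2372), dark blue is kept (3400), light blue is lost (50) and grey is every other combination. The tallest bar, 4308 regions, is of regions called in 1 h replicate 2 alone.

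The excess of gained over lost regions was smaller once the lists had equal length. Dividing the same 4 libraries by replicate number, as a control, gave 486 regions called in both replicate 1 libraries alone and 242 in both replicate 2 libraries alone. Crossing the numbers gave 105 and 655. When each list was cut to its 5373 strongest peaks by p, the length of the shortest, 466 regions were gained, 293 lost and 1921 kept, and the division by replicate number gave 431 and 329 and the crossed one 242 and 303. At equal length the gained count was close to that of the replicate division. The cut gives both times the same number of peaks, so it removes any general rise in binding by construction. It cannot tell an effect of list length from such a rise. The division by time stood well above both others only with lists of their own length, or cut at a −log10 q of at least 3 (2093 gained, 52 lost) or a fold of at least 3 (2243 gained, 56 lost).

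Gained regions were the weaker part of the 1 h lists. Their median fold enrichment over background was 4.55 in replicate 1 and 4.56 in replicate 2, against 6.25 and 6.27 for kept regions. At the summit a median of 16 fragments lay over gained regions in both 1 h libraries, and 24 and 25 over kept regions. The 9092 regions in both 1 h lists were ranked by mean fold and divided into 4 bins of nearly equal size, of which 48.1% were gained in the weakest, then 32.2%, 18.2% and, in the strongest, 5.94% (135 regions). Gained regions thus reached into every bin and were most frequent in the weakest.

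The lowest members sat at the edge of the threshold. The gained region near Smarcc2 had a −log10 q of 3.37 and 1.33 at 1 h, and the one near Cops3 5.52 and 1.33, where a list keeps peaks from about 1.3. Just outside, the region near Capn10 had 7.90 and 6.29 at 1 h and was kept from being gained by a 30 min replicate 2 peak of 1.32. Another 3320 regions were called in both 1 h lists and in a single 30 min list. Of these, 2766 were in 30 min replicate 1 and 554 in replicate 2.

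With the 1 h summit coverage and its background scaled to the depth of each 30 min library, 2067 of the 2372 gained regions (87.1%) would still have reached the lowest −log10 p of both 30 min lists in both 1 h replicates. Of the 2 libraries only 30 min replicate 2 was shallower than both 1 h libraries, and it alone gave 2067. The regions were chosen by these same 1 h calls, which in large part fixes a high share, so nothing about depth is read from it. Summit coverage was also higher at 1 h at regions called at both times. At kept regions the summit coverage relative to the library mean was higher at 1 h by a median log2 ratio of 0.15 in replicate 1 and 0.41 in replicate 2, with 67.5% and 85.2% of regions higher. Replicate 1 over replicate 2 gave a median of -0.23 at 1 h and 0.04 at 30 min, so the shift of 0.41 was larger than both and that of 0.15 lay between them in size. Whether this general difference in enrichment accounts for the gained regions was not tested, because the lists hold no coverage for a region that was not called.

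**Figure D2:**
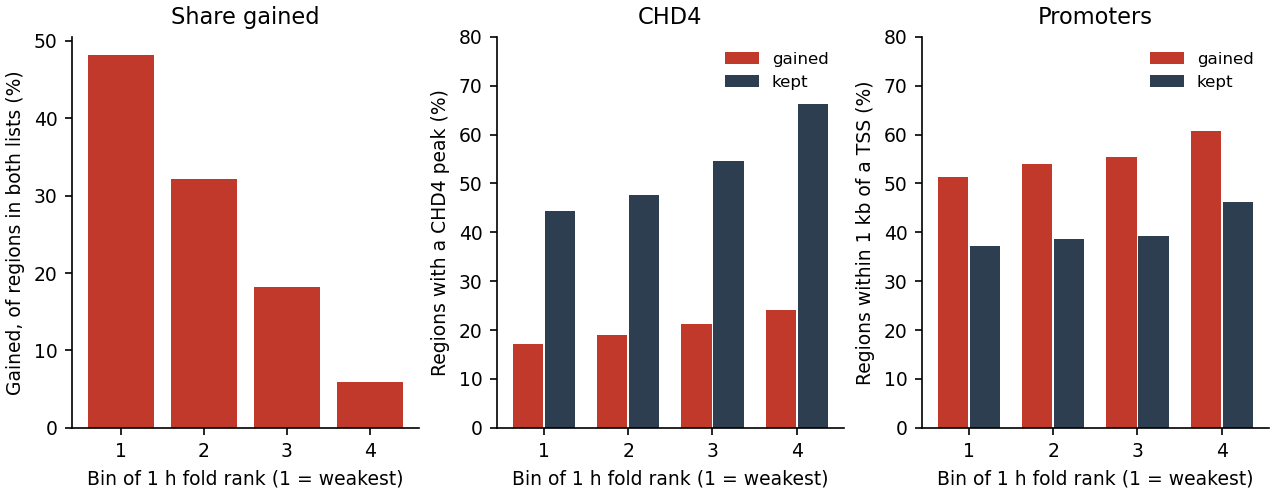
Regions called in both 1 h lists, divided into 4 bins by their mean 1 h fold rank. Left, the share gained, falling from 48.1% to 5.94%. Middle, the share with a CHD4 peak as a mean over 8 lists, lower at gained than at kept regions in each bin. Right, the share within 1 kb of a start site, higher at gained regions in each bin.

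The 6 gained regions with the highest mean fold rank at 1 h lay near Foxo3, Hist2h3c2, Panx1, Mapk4, Shprh and Senp2. The first, on chr10:42220508-42220975, is in an intron of Foxo3, which encodes a FOXO transcription factor of the PI3K pathway, 37624 bp from the nearest start site. Its fold was 9.38 and 11.1 in the 1 h replicates and 5.37 and 11.2 at 2 h, with no peak in either 0 h or 30 min list. It had a CHD4 peak in 1 of the 30 min lists, both 1 h lists and 1 of the 2 h lists, and an H3K27ac peak in all 8 lists. Foxo3 was thus a region with nothing called before 1 h in the Ikaros lists.

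The region near Hist2h3c2, a replication-dependent histone H3 gene, lies on chr3:96239253-96239652, 326 bp from the start site. Its 1 h fold was 11.4 and 9.11, it had a peak of 4.70 in 0 h replicate 2 and one of 4.98 in 2 h replicate 2, and no peak in the other 0 h and 2 h libraries. H3K27ac folds there ran from 23.6 to 39.9. The region in an intron of Panx1, a membrane channel gene, on chr9:15029821-15030436, had 9.94 and 9.43 at 1 h and 4.90 and 5.76 at 2 h, and an H3K27ac peak in a single library (2 h replicate 1). Panx1 was the only one of the 6 without acetylation in most libraries.

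The other 3 were Mapk4, Shprh and Senp2. Mapk4, a gene for an atypical MAP kinase, held the region in an intron, with 8.52 and 9.59 at 1 h, 5.46 and 6.40 at 2 h, and 6.33 in 0 h replicate 2. Shprh, which encodes a DNA repair ubiquitin ligase, had the region in its UTR 15 bp from the start site (chr10:11149238-11149651), with 8.81 and 8.66 at 1 h and 9.60 in 2 h replicate 2 alone. Senp2, a SUMO protease gene, had an intergenic region 250 bp from the start site (chr16:22008972-22009495), with 9.47 and 8.04 at 1 h and 7.59 and 5.76 at 2 h. At 4 of the 6 (Foxo3, Panx1, Shprh and Senp2) neither 0 h list had a peak.

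The 3 lost regions with the highest 30 min rank each had a peak in at least 1 of the 0 h lists too. The region 11256 bp from Nab1, a corepressor of EGR factors, on chr1:52511746-52512124, had a fold of 8.17 and 10.4 at 0 h, 5.93 and 5.61 at 30 min, no peak at 1 h, and 3.37 and 6.72 at 2 h. The one 11289 bp from Bdkrb2, a bradykinin receptor gene, on chr12:105551719-105552154, had 9.37 and 28.3 at 0 h, 5.09 and 5.37 at 30 min and no peak at 1 h or 2 h. The third lies in an intron of Ebf1, a transcription factor that sets B-cell identity, on chr11:44911372-44911823, with 5.98 and 4.55 at 30 min, 4.19 in 0 h replicate 2 and 4.71 in 2 h replicate 2. A peak was thus listed again at 2 h in both libraries at Nab1 and in 1 library at Ebf1.

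The 3 kept regions with the highest ranks were near Ctdnep1, Cpped1 and Anapc16. The region 125 bp from the start site of Ctdnep1, a nuclear envelope phosphatase gene, on chr11:69980029-69982033, had a fold of 22.2 and 14.9 at 1 h and 22.9 and 13.0 at 30 min. The one in an intron of Snx29 on chr16:11685258-11688996, 222269 bp from Cpped1, had 15.6 and 14.8 at 1 h and 13.8 and 18.1 at 30 min, after 26.0 and 40.4 at 0 h. Beside Anapc16, a gene of the anaphase-promoting complex, on chr10:59973896-59975204, the values were 14.8 and 14.2 at 1 h and 12.1 and 13.1 at 30 min. The values at 1 h and 30 min overlapped at Ctdnep1 and Cpped1 and did not at Anapc16. These folds were among the values that chose the regions and are given as a description.

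**Figure D3:**
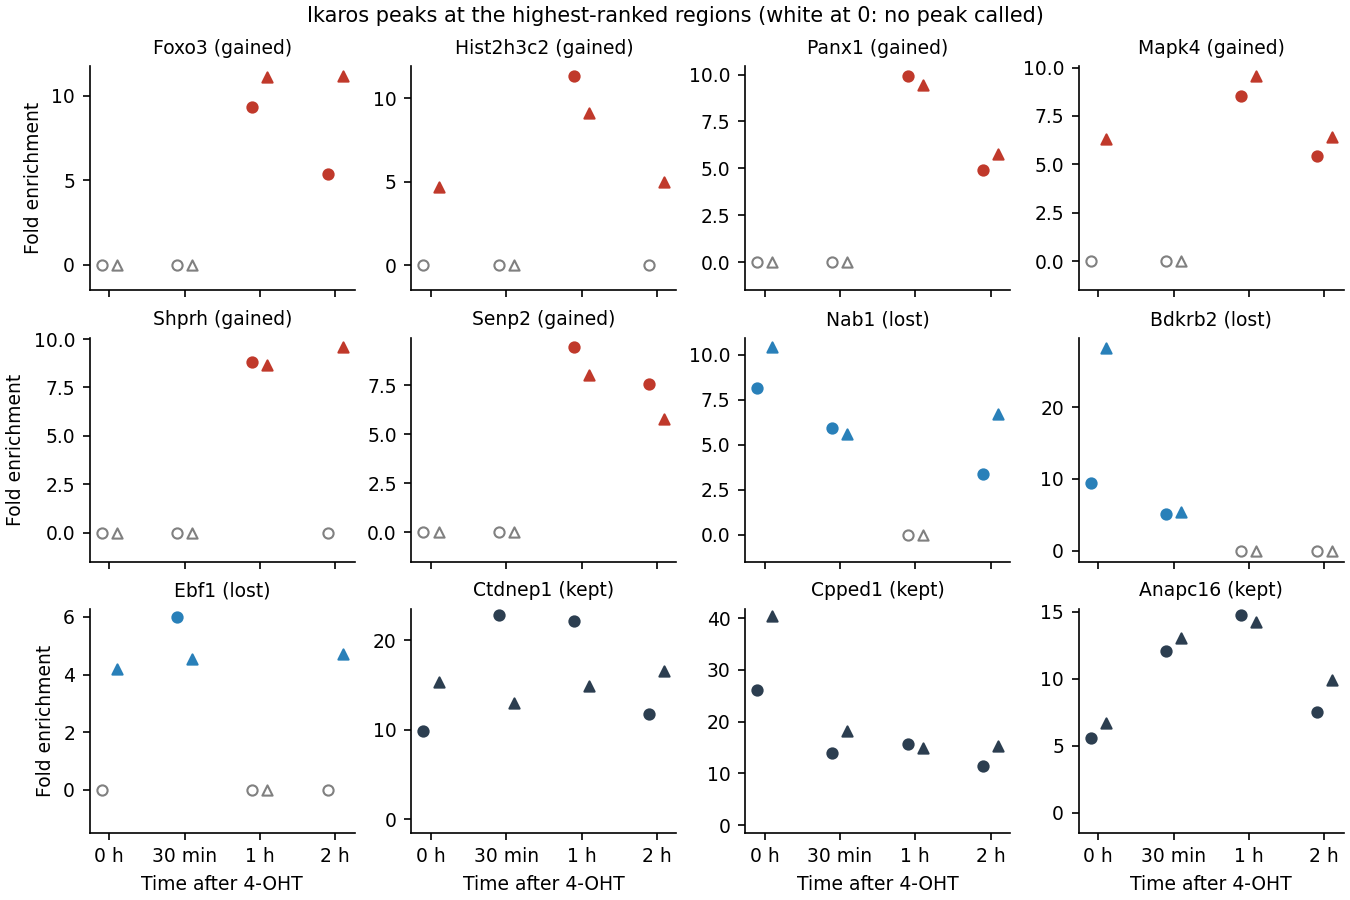
Ikaros fold enrichment (linear axis) at the 6 gained, 3 lost and 3 kept regions of highest rank, by time after 4-OHT. Circles are replicate 1 and triangles replicate 2, and a white symbol at 0 marks a library with no peak called. The gained regions have no symbol above 0 at 30 min.

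Ikaros was already called at a share of the gained regions before 4-OHT, within the limit on comparing 0 h lists given above. Of the 2372, 1444 (60.9%) had no peak in either 0 h list, 523 (22.05%) had one in a single list and 405 (17.1%) in both. The 405 were called at 0 h and 1 h in both replicates and in neither replicate at 30 min. Kept regions were more often present at 0 h, with 2421 of 3400 (71.2%) in both lists. Of the 50 lost regions, 22 were in both 0 h lists and 16 in neither. The share of gained regions in no 0 h list moved from 43.3% without Ikaros 30 min replicate 1 to 75.4% without Ikaros 1 h replicate 1. The 0 h libraries came from the same line without 4-OHT, so their peaks are those of the anti-HA pulldown before induction. No library of untagged cells is among the samples, so tagged protein and background cannot be told apart there.

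At 2 h, gained regions were called more often than at 0 h. They had a peak in 62.2% and 70.1% of cases in the 2 h replicates (mean 66.1% ± 5.54, SD, n = 2) and in 25.04% and 31.2% in the 0 h replicates (28.1% ± 4.32). The difference of 38.05 percentage points was present in every library pair, with an exact permutation p of 0.33, the smallest this design allows (adjusted p = 0.381). The 2 h lists were also longer, with 14225 and 14179 peaks against 7822 and 9527 at 0 h, and with lists of equal length the difference was 22.3 points. Both 2 h lists called 1161 (48.9%) and neither called 395 (16.7%). Of the 1444 gained regions in no 0 h list, 43.3% were in both 2 h lists, against 58.3% of those in both 0 h lists. Kept regions were in both 2 h lists in 91.6% of cases.

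**Figure D4:**
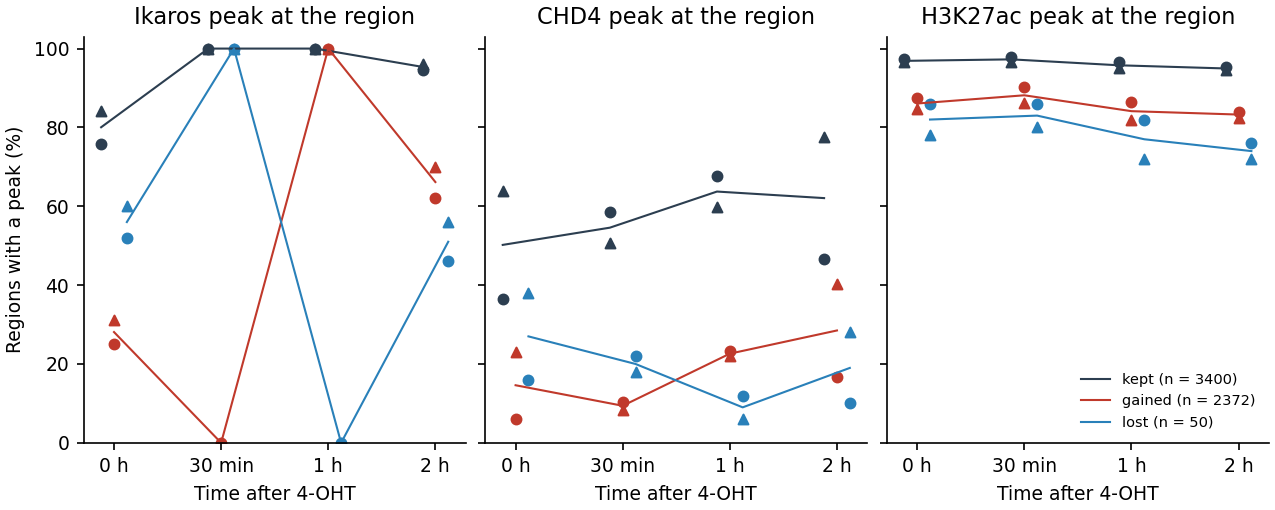
Share of kept (3400), gained (2372) and lost (50) regions with a peak of Ikaros, CHD4 or H3K27ac in each library, in percent. Circles are replicate 1, triangles replicate 2 and lines join the means. The 30 min and 1 h Ikaros values are set by the definition of the classes, and the kept value stands above the gained value in each CHD4 library.

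CHD4 was less often called at gained than at kept regions. Over the 8 CHD4 libraries, 18.8% of gained and 57.6% of kept regions had a CHD4 peak, a difference of -38.9 percentage points that lay between -48.0 and -29.8 and was negative in 8 of 8 libraries (exact sign-flip permutation p = 0.00781, adjusted p = 0.0312). The kept regions are stronger than the gained ones and, being merged from 4 lists in place of 2, wider in part by construction (medians 1200 and 628.5 bp). The same 2 sets of regions were scored in all 8 libraries, so the p says only that the libraries shared a sign. Within bins of 1 h fold rank the difference was -32.8 points, and -32.7 with summits widened by 100 bp in place of whole peaks, with the same exact p. The bins did not match width. Medians were 591 bp for gained and 1015 bp for kept regions in the weakest bin, and 725 and 1341 bp in the strongest. It was -12.2 points when the peaks of every list, Ikaros and CHD4, needed a −log10 q of at least 3, which also redefined the classes (2093 gained, 2625 kept), and shrank to -24.1 points without Ikaros 30 min replicate 2, with no change of call. In the strongest bin a mean of 24.2% of gained and 66.3% of kept regions carried CHD4.

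CHD4 calls at gained regions were at 6.07% and 23.1% in the 0 h replicates, 10.4% and 8.39% at 30 min, 23.3% and 21.9% at 1 h and 16.7% and 40.3% at 2 h. The 1 h values lay above the 30 min values by a mean of 13.2 points with no overlap, while replicates of 0 h and of 2 h differed by more than that. The CHD4 lists themselves ranged from 2488 to 9593 peaks. Early libraries (0 h and 30 min) averaged 12% ± 7.64 and late ones (1 h and 2 h) 25.6% ± 10.2 (SD, n = 4), a difference of 13.6 points that did not pass the test (exact permutation p = 0.0857, adjusted p = 0.137). Each n = 4 pools 2 times, so these SDs mix time with library and the test treats the pooled times as alike. The difference was 8.64 points without CHD4 2 h replicate 2. It was 2.13 points when the peaks of every list needed a −log10 q of at least 3 (exact permutation p = 0.0857). After every list was cut to equal length it was 7.51 points with an exact permutation p of 0.0286, the smallest possible. Kept regions went from 52.4% to 62.9%, and the gained minus kept difference changed by 3.04 points (exact permutation p = 0.514), turning to -1.73 points at a −log10 q of at least 3 and to -0.62 without Ikaros 1 h replicate 1. It was 11.5 points with lists of equal length (exact permutation p = 0.0571) and 6.38 within bins of 1 h fold rank (exact permutation p = 0.171), so neither its sign nor its size was stable.

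New CHD4 peaks were not more frequent at gained regions. Called in both 1 h and neither 30 min CHD4 list were 129 of 2372 gained (5.44%) and 185 of 3400 kept regions (5.44%). Among regions with no CHD4 at 30 min, the share with a new peak was 6.48% of 1991 gained and 17.8% of 1038 kept regions. CHD4 was in all 8 lists at 15 gained and 539 kept regions, and in none at 883 (37.2%) and 213 (6.26%). These counts are given without a test since regions are not replicates.

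Acetylation was high at gained regions and lower than at kept ones. H3K27ac peaks covered 85.4% of gained and 96.2% of kept regions as a mean over 8 libraries, a difference of -10.8 points between -13.2 and -7.65 that was negative in 8 of 8 (exact sign-flip permutation p = 0.00781, adjusted p = 0.0312). The limits given for CHD4 apply here too, since the same stronger and wider kept regions were scored in each library. Within bins of 1 h fold rank the difference was -9.10 points, without Ikaros 30 min replicate 1 -5.96 and without Ikaros 1 h replicate 1 -19.4, with no change of call. All 8 libraries called acetylation at 1786 gained (75.3%) and 3143 kept regions (92.4%), and none at 169 and 58.

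The share at gained regions was 87.6% and 84.6% at 0 h, 90.2% and 86.1% at 30 min, 86.4% and 81.9% at 1 h and 84.0% and 82.5% at 2 h. The highest value was in 30 min replicate 1, the only H3K27ac list whose recovered pileups were whole numbers, and the part of that difference in the shares was not tested. The early mean was 87.1% ± 2.38 and the late one 83.7% ± 2.01 (SD, n = 4), with 2 times pooled in each as for CHD4, here and for the ranks below. The difference of -3.41 points missed the threshold (exact permutation p = 0.0857, adjusted p = 0.137) and was -1.88 with lists of equal length, and the values of the 2 groups overlapped. Within each replicate number, both early values lay above both late ones. Permuting within replicate number gave an exact permutation p of 0.0556, the smallest that design allows, which also missed the threshold. Kept regions moved from 97.1% to 95.4%. Where H3K27ac was present in all 8 libraries, the fold rank of gained minus kept regions within a list was -8.27 ± 1.76 percentile points early and -6.00 ± 0.64 late (SD, n = 4). The change of 2.27 points also missed the threshold (exact permutation p = 0.0857). It was 1.19 with summits widened and 1.24 without Ikaros 30 min replicate 1, and reached the smallest possible p of 0.0286 with lists of equal length, without Ikaros 30 min replicate 2 and without H3K27ac 30 min replicate 1. At lost regions, only 50 in number, H3K27ac was called in 86% and 80% at 30 min and 82% and 72% at 1 h.

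Gained regions lay at promoters more often than kept ones. Within 1 kb of a start site were 1266 of 2372 gained (53.4%), 1431 of 3400 kept (42.1%) and 15 of 50 lost regions (30%). The gained minus kept difference was 11.3 points, 18.5 with lists of equal length and 15.04 within bins of 1 h fold rank. It was 4.52 points without Ikaros 1 h replicate 1, 17.2 without Ikaros 30 min replicate 1, and turned to -1.25 without Ikaros 30 min replicate 2, the shortest list. The median distance to a start site was 761 bp for gained and 2095.5 bp for kept regions. Centres lay in introns for 39.6% of gained regions, between genes for 36.4%, in a UTR for 13.3% and in other exons for 10.8%. At gained promoters the early and late CHD4 shares were 7.25% and 21.3%, and at distal gained regions 17.5% and 30.4%.

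Core words were somewhat fewer under gained than kept summits. Within 50 bp of the 1 h summit there were 3.18 ± 1.92 core words per 100 bp at gained and 3.56 ± 2.05 at kept regions (SD over regions, which are not replicates). Flanks 400 to 500 bp away held 2.18 and 2.42. TGGGAA or its complement TTCCCA lay in 12.3% of gained and 14.6% of kept windows, against 10.4% of 23856 windows of the same length at the centres of all Ikaros regions. Those windows lie at region centres and not at summits, and include the gained and kept regions, so the shares are not like for like. The gained minus kept difference of -0.38 words was -0.09 within bins of 1 h fold rank, -0.63 without Ikaros 1 h replicate 1 and -0.18 without Ikaros 30 min replicate 1. Word density differed more by presence at 0 h, at 2.93 for gained regions in no 0 h list and 3.85 for those in both, and 2.77 and 3.78 for kept regions. TGGGAA followed the same order, in 9.28% and 20.99% of those gained windows.

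**Figure D5:**
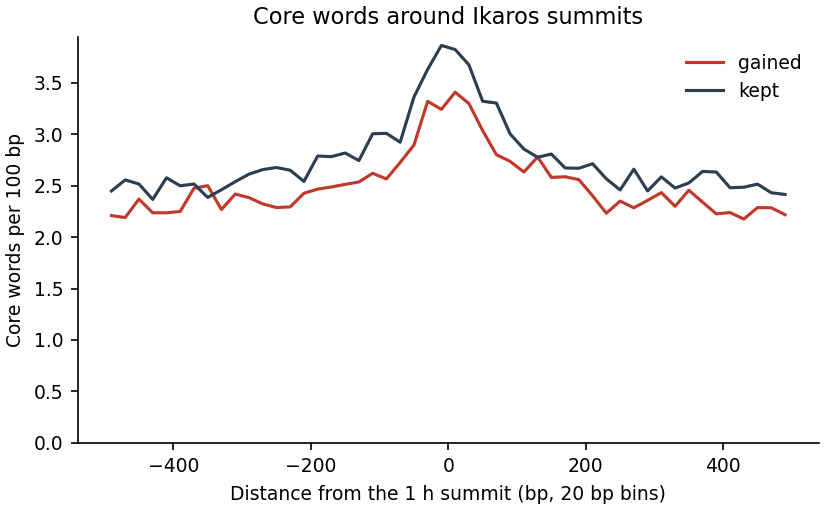
Core words (GGAA or TTCC and GGGA or TCCC) per 100 bp in 20 bp bins around the 1 h Ikaros summit of gained and kept regions. Both rise at the summit, to 3.41 in the bin centred 10 bp from it for gained and 3.86 for kept, from 2.21 and 2.45 at the left edge.

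Genes near gained regions were counted for 14 gene lists beside all protein-coding genes. Of 21938 such genes, 2935 (13.4%) had a gained, 58 (0.264%) a lost and 3337 (15.2%) a kept region within 20 kb of a start site. In 13 of the 14 lists the share near a gained region was above that of all genes with 20 kb and in 12 with 50 kb, and kept regions exceeded 15.2% in all 14. Nothing particular to a list is read from these counts.

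In the B-lineage transcription factor list 7 of 22 genes had a gained region, 1 a lost one and 16 a kept one. Runx1, a partner of early B-cell programmes, had a gained region 17806 bp from a start site with 5.97 and 8.04 at 1 h and no peak in any other Ikaros library. Gfi1, a zinc finger repressor, had one 272 bp from its start site with 5.11 and 4.33 at 1 h, 4.16 in 2 h replicate 1 and no peak at 0 h. Ebf1 held the lost region given above together with 4 kept regions. Of the pre-B receptor signalling genes 2 of 14 had a gained region and 12 a kept one. The kinase gene Lyn had 5.10 and 8.04 at 1 h after 8.53 and 7.96 at 0 h, and Syk, 17 bp from a start site, 4.37 and 4.41 at 1 h and 4.47 in 0 h replicate 2. Neither had a peak at 2 h.

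The V(D)J recombination list had 4 of 10 genes near a gained region and 3 near a kept one. Dclre1c, the Artemis nuclease, had 5.496 and 4.80 at 1 h, 397 bp from its start site, and Prkdc, the DNA-PK catalytic subunit, 4.61 and 5.57 at 187 bp. Neither had a peak at 0 h or a kept region within 20 kb, and both were called in both 2 h libraries. In the BCL2 family, 5 of 13 genes had a gained and 3 a kept region. Mcl1, a survival factor, had 4.25 and 5.79 at 1 h and 4.94 and 6.09 at 2 h, and Bid, a pro-apoptotic member, 4.55 and 4.95 at 1 h and 4.87 in 2 h replicate 1. Neither had a peak at 0 h.

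Among mitosis genes 3 of 14 had a gained region and none of the 3 had a kept region within 20 kb. Cdc20, an activator of the anaphase-promoting complex, had the strongest of these, 263 bp from its start site, with 7.28 and 9.28 at 1 h, 7.53 and 8.32 at 2 h, and 3.13 in 0 h replicate 2. Kif11, a spindle motor gene, had 3.98 and 5.68 at 1 h, 5.46 in 2 h replicate 1 and no peak at 0 h. In the G1 to S list 4 of 21 genes had one, among them Ccnd2, a D-type cyclin, 11 bp from a start site, with 5.40 and 3.31 at 1 h, 2.69 in 0 h replicate 1 and no peak at 2 h. Cdc20, Kif11, Dclre1c, Prkdc, Mcl1, Bid, Gfi1, Runx1, Syk, Lyn and Ccnd2 had an H3K27ac peak in all 8 libraries, as did 75.3% of all gained regions.

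In the other lists the share of genes near a gained region ran from 0% for the Ikaros family to 41.7% for AP-1 and EGR. The IL-7 receptor and STAT5 list had 5 of 13 genes with a gained region, integrins and adhesion 5 of 15, AP-1 and EGR 5 of 12, NuRD subunits 2 of 13, Notch 2 of 11, glycolysis 2 of 14 and the Ikaros family 0 of 5. Stat5a and Stat5b shared a single gained region, with 5.40 and 3.62 at 1 h, 3.45 and 3.70 at 0 h and 4.94 and 4.29 at 2 h, and an H3K27ac peak in 2 of 8 libraries. The Notch ligand gene Dll1 had 4.55 and 5.26 at 1 h, 4.98 and 10.3 at 0 h and no peak at 2 h, and no H3K27ac peak in any library. Of 17 fast repressed genes named in the study, 5 had a gained and 14 a kept region. That list was chosen by the study from this cell system and is not independent evidence. Among them Itga5, an integrin gene, had 5.40 and 4.95 at 1 h after 6.45 and 8.69 at 0 h, and 3.59 in 2 h replicate 1, with H3K27ac in all 8 libraries.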

How the data were processed

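Ikaros, CHD4 and H3K27ac ChIP-seq peak lists, 1 per library, were used as deposited. The authors aligned reads to mm10 with Bowtie2 2.4.2, marked duplicates with Picard 2.23.7 and called peaks with MACS2 2.2.7.1 (narrow; broad for CHD4). Settings for the 30 min libraries were not stated. Each deposited list gives a score (not used), a fold enrichment (a ratio over the local background), the −log10 of the p-value and q-value, and a summit where narrow. The lists hold no counts, so no count model was run. The 8 input libraries were not analysed here.

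Peaks sharing 1 bp were merged with Python 3.11.15, and TSSs came from GENCODE M21. Depth was recovered from fold and p, for peaks with a −log10 p under 40 (100% of pileups were whole within 0.05 fragments in the 1 h, 30 min and 2 h Ikaros lists). In the 0 h Ikaros lists 6.98% and 9.62% of pileups were whole, as were 4.36% to 13.7% in the H3K27ac lists except 30 min replicate 1 (100%), so no depth is given there. The treatment may have been scaled differently in those lists, and how was not stated. One value per library was tested by exact two-sided permutation or sign-flip (8 tests, Benjamini-Hochberg), and scripts were tested on simulated data. One gene of the lists is not reported here and was left out of their counts. Members, lists and tests were chosen with earlier results of these data known. Named regions were the 6 gained, 3 lost and 3 kept with the highest mean fold rank, and named genes at most 3 a list by the region's mean rank. The difference within bins of 1 h rank, the scaling of depth and the runs without an Ikaros 0 h or 2 h library were added after seeing the data.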

Additional observations from a re-analysis of the deposited data

How the results depend on the processing

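Of 218 comparisons of a result with an alternative, 170 kept direction and side of the threshold (or moved by less than the spread), 4 no longer passed, 4 newly passed, 37 moved and 3 reversed. Lists of equal length gave 466 gained, 293 lost and 1921 kept regions, a CHD4 change at gained regions of 7.51 points and an H3K27ac rank change of 2.57 (exact permutation p = 0.0286 for both, now passing), a promoter difference of 18.5 points and a core word difference of -0.30. Peak numbers are then equal by construction. Summits widened by 100 bp gave 226 lost and 2132 kept regions, a promoter difference of 13.3 points and a word difference of -0.38. A −log10 q of at least 3 gave 58.3% of gained regions in no 0 h list, a CHD4 gained minus kept change of -1.73 points (reversed) and -0.37 words, a fold of at least 3 -0.38 words and stitching within 500 bp -0.34. The word difference was -0.15 after subtracting control words, -0.14 after subtracting flanks and -0.0857 within bins of 1 h fold rank, where the promoter difference was 15.04 points. An overlap of 50% cannot change the 3 classes, since peaks lie inside merged regions.

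Leaving out 1 library gave 2931 to 6847 gained, 169 to 1000 lost and 3495 to 6171 kept regions, 43.3% to 75.4% of gained regions in no 0 h list, a CHD4 gained minus kept change of -0.62 to 6.36 points, an H3K27ac rank change of 1.24 to 3.06, a promoter difference of -1.25 to 17.2 points and a word difference of -0.63 to -0.18. Where an Ikaros 1 h or 30 min library was left out, 3 lists decide a class in place of 4. The ends of 6.36 and 3.06 came without CHD4 0 h replicate 1 and without H3K27ac 30 min replicate 1, which leaves the classes as they were. The highest gained count was without Ikaros 1 h replicate 1, the highest lost and kept counts and the reversed promoter difference were without Ikaros 30 min replicate 2, and the reversed CHD4 change was without Ikaros 1 h replicate 1. The H3K27ac rank change also passed (exact permutation p = 0.0286) without Ikaros 30 min replicate 2 and without H3K27ac 30 min replicate 1. With 1 h and 30 min libraries alone the gained minus kept difference was -43.1 points for CHD4 and -10.4 for H3K27ac, with an exact p of 0.125, the smallest that 4 libraries allow.

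With a replicate block the gained minus kept differences were -38.9 points for CHD4 and -10.8 for H3K27ac with an exact p of 0.5, the smallest 2 blocks allow, so the lost call says nothing of their stability. Deviations of same-numbered libraries over kept regions correlated at 0.04, and no label says that a number marks a shared culture or day. Yet H3K27ac replicate 1 had more peaks, and a higher share at gained and kept regions, than replicate 2 at every time. Whether the numbers pair the samples thus cannot be told. The block changed no other call, but under it no late minus early test could give an exact permutation p below 0.0556. A list holds peaks that passed its own threshold, so a region absent from one was not shown to be unbound, and peak numbers move with depth and enrichment. The cause of the changes above was not tested.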

Other observations

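Of the gained regions, 267 were called in both 1 h lists and in none of the 0 h, 30 min and 2 h lists. The gained regions called in neither 2 h list (395) were narrower than those in both (514 against 699 bp, medians), lay less often within 1 kb of a start site (43.8% against 57.5%) and carried CHD4 less often in late libraries (13.2% against 33.1%). Their core word density was 3.37 against 3.18 per 100 bp.

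A cluster at the start of the sequenced part of chromosome 9, 94.55% repeat-masked, was called in every Ikaros list. At 30 min and 1 h it held 5 wide peaks per list, covering 35608 to 36413 bp, with a highest −log10 p of 2455 to 3050 and a highest fold of 3.43 to 3.603. At 0 h it was split into 20 and 21 peaks with a highest −log10 p of 1061 and 809. The peak with the highest −log10 p of each 30 min and 1 h list lay on chromosome 2 near position 98666638, with a fold of 1.71 to 2.01. A ranking by p and a ranking by fold place these peaks differently.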
